A study of Mus musculus with 13 samples.

Results

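The vacuolar ATPase (V-ATPase) is the proton pump that acidifies lysosomes, endosomes and secretory vesicles. Here 10 of its subunit genes, of 18649 genes measured, were followed across sorted mouse splenic CD4 T cells: Atp6v0a1, Atp6v0a2, Atp6v0b, Atp6v0c, Atp6v0d1 and Atp6v0d2 of the membrane sector, and Atp6v1a, Atp6v1b2, Atp6v1d and Atp6v1e1 of the cytosolic sector. The genes were selected on earlier results from the same libraries, in which the isoform Atp6v0d2 differed between populations, so their levels and differences are given as a description without a test. Members were found by exact gene symbol, and all 10 were present, each at a mean level of 10 or more.

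RNA of 3 sorted populations was sequenced in 13 libraries. Regulatory T cells (Treg, 5 libraries) were CD4+ cells that were positive for the Foxp3 GFP reporter and lacked surface PD-1, an inhibitory receptor. Conventional T cells (Tconv, 5 libraries) lacked both, and PD1hi cells (3 libraries) lacked the reporter and had high surface PD-1. All came from mouse spleen, and the labels name no treatment, strain, sex or age. Because the Treg gate required that PD-1 be absent, PD-1-bearing Treg are not represented. The titles number experiments 3, 5 and 6, each with every population, and call 4 libraries a replicate of another. Whether replicates were separate animals is not stated, so the p-values below reflect only how these samples scatter, which can be technical.

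In the pump, the membrane sector V0 carries protons through a ring of c and b subunits against the a subunit, and the cytosolic sector V1 hydrolyses ATP in its A and B subunits and turns the central stalk. Subunit D is the shaft of that stalk, and the V0 subunit d joins it to the ring. Subunit E forms the peripheral stalk. Several subunits exist as isoforms from separate genes: Atp6v0d1 is expressed in most cells, while Atp6v0d2 is best known from osteoclasts and some macrophages. The pump is also part of the amino acid sensing machinery that recruits mTORC1 to the lysosome.

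Levels are scaled counts, that is reads divided by a size factor of the library. A mean ± SD is over 3 values (n = 3), 1 per experiment, with libraries of the same experiment and population averaged. Log2 differences are on log2(scaled count + 1), with the standard error (SE) from limma. Libraries held 15971126 to 24216463 reads in genes. The genes behind the sort matched the labels: Pdcd1, the gene of PD-1, averaged 37370 ± 3290 in PD1hi, and Foxp3 averaged 15890 ± 513 in Treg and 106 ± 33.4 in PD1hi. The third principal component set 2 libraries, PD1hi of experiment 6 (-53.35) and the Treg replicate of experiment 3 (-50.67), apart from the other 11 (-12.24 to 35.41), and results are given below without both where they moved.

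The coding sequences of both d isoforms (GENCODE M21, mouse GRCm38) were compared first, since their shares depend on reads being told apart. Over 1043 aligned coding bases, 67.7% were identical, and the longest identical run was 17 bases. For Atp6v0a1 and Atp6v0a2 the identity was 67.1% over 2448 aligned bases, with a longest run of 23 bases.

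Among the d isoforms, Atp6v0d2 was the subunit that differed most between populations. In Treg the libraries had scaled counts of 3252 and 2196 in experiment 3, 3112 in experiment 5, and 3120 and 3069 in experiment 6. In Tconv they had 69.27 in experiment 3, 82.14 and 87.45 in experiment 5, and 61.57 and 78.68 in experiment 6. In PD1hi they had 15.37, 11.11 and 0 in experiments 3, 5 and 6. Every Treg library was far above every Tconv library, and every Tconv library was above every PD1hi library. The 3 PD1hi libraries held 26 reads of the gene in all, and the count of 0 in experiment 6 allows a scaled count of up to 3.26 (a limit of 3 reads, which covers counting error only).

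Mean levels of Atp6v0d2 were 2977 ± 219 in Treg, 74.73 ± 8.73 in Tconv and 8.829 ± 7.94 in PD1hi. The difference was 5.30 ± 0.78 (log2 ± SE) in Treg against Tconv, -8.99 ± 0.78 in PD1hi against Treg and -3.69 ± 0.78 in PD1hi against Tconv. The last value rested in part on the PD1hi library without a read: leaving out experiment 6 of PD1hi gave -2.42, and -7.72 against Treg. A lower level in a bulk sample can mean fewer cells with the transcript or less of it per cell, and these cannot be told apart.

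Atp6v0d1, the d isoform of most cells, did not follow this order. Its scaled counts in Treg were 790.1, 921.3, 1114, 635.9 and 843.9, in Tconv 866.4, 957, 1177, 768.4 and 828.7, and in PD1hi 1035, 1219 and 1169. The libraries of all populations overlapped, and the means were 903.4 ± 192, 910.7 ± 140 and 1141 ± 94.8. The log2 difference was 0.33 ± 0.18 in PD1hi against Tconv, 0.35 ± 0.18 against Treg and -0.02 ± 0.18 in Treg against Tconv.

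Set together, the d isoforms differed in composition between populations. Atp6v0d2 made up 76.8% ± 3.59 of the scaled counts of both in Treg (n = 3), 7.61% ± 0.399 in Tconv and 0.789% ± 0.738 in PD1hi. Per kilobase of exon, which corrects for the longer Atp6v0d2 gene model, the shares were 68.7% ± 4.36, 5.16% ± 0.278 and 0.523% ± 0.49. The sum of both genes was 3880 ± 326 in Treg, 985.4 ± 148 in Tconv and 1150 ± 91.1 in PD1hi, so the Treg sum was higher while Atp6v0d1 alone was level with Tconv.

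**Figure D1:**
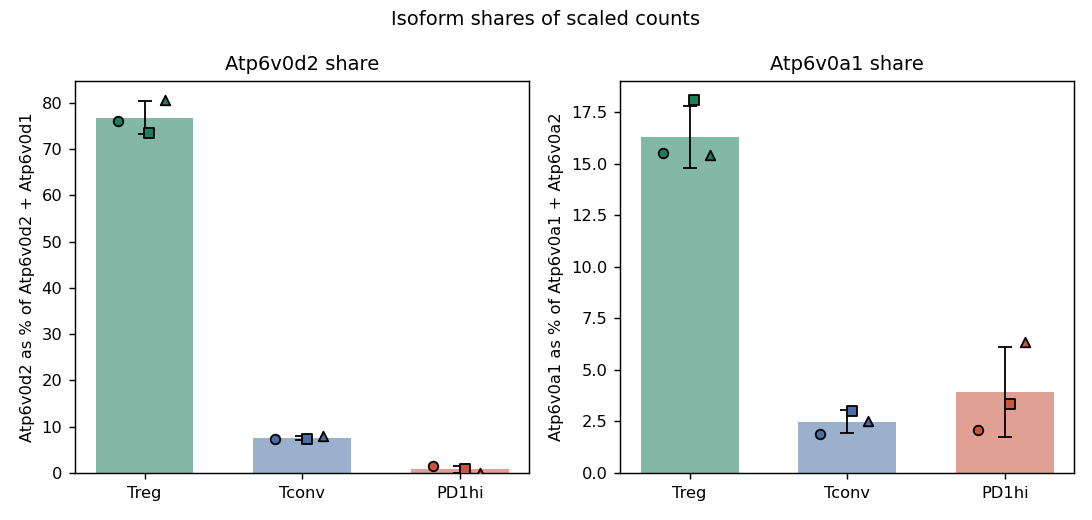
Share of Atp6v0d2 in the scaled counts of Atp6v0d2 plus Atp6v0d1, and of Atp6v0a1 in those of Atp6v0a1 plus Atp6v0a2, in percent, by population. Bars are means of 3 experiments from 0, error bars are SD, and circles, squares and triangles are experiments 3, 5 and 6. The Treg bars stand at 76.8% for Atp6v0d2 and 16.3% for Atp6v0a1, above every Tconv and PD1hi point.

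Atp6v0a1, an a subunit isoform best known from neurons, was also highest in Treg, from a much lower level. Treg libraries had 573.9, 247.6, 437.3, 383.1 and 541.1, where the second is the Treg library that stands apart. Tconv libraries had 54.35, 105.9, 71.45, 55.65 and 97.49, and PD1hi libraries had 66.62, 105.1 and 140.2. The lowest Treg library lay above every other library, while Tconv and PD1hi overlapped. Means were 436.7 ± 25.7, 73.2 ± 17.4 and 104 ± 36.8. The difference was 2.59 ± 0.30 in Treg against Tconv, -2.12 ± 0.30 in PD1hi against Treg and 0.47 ± 0.30 in PD1hi against Tconv. Without both libraries that stand apart the PD1hi against Treg value was -2.53.

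Atp6v0a2, the a isoform of endosomes and the Golgi, averaged 2254 ± 275 in Treg, 2876 ± 78.7 in Tconv and 2752 ± 596 in PD1hi. Of these 2 a isoforms, Atp6v0a1 was therefore the minor one in each population. It made up 16.3% ± 1.5 of the scaled counts of both in Treg, 2.48% ± 0.551 in Tconv and 3.92% ± 2.2 in PD1hi. Neither this share nor the sum below includes Tcirg1, a further a isoform. Tcirg1 averaged 1312 ± 252 in Treg, 1340 ± 231 in Tconv and 1428 ± 413 in PD1hi. The sum of Atp6v0a1 and Atp6v0a2 was 2691 ± 289, 2949 ± 89.4 and 2856 ± 563, ranges that overlapped. The Treg sum of the d pair, in contrast, lay above all others in each experiment.

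Atp6v1d, the rotor shaft subunit, was lowest in PD1hi. Treg libraries had 4695, 4859, 4353, 4837 and 4958, Tconv libraries 4461, 3714, 3798, 4719 and 4408, and PD1hi libraries 3384, 2827 and 2288. All PD1hi libraries lay below all others, and Treg and Tconv overlapped. Means were 4676 ± 286, 4260 ± 440 and 2833 ± 548. The log2 difference was -0.60 ± 0.16 in PD1hi against Tconv, -0.74 ± 0.16 against Treg and 0.14 ± 0.16 in Treg against Tconv. Without both libraries that stand apart, the first 2 values were -0.46 and -0.59.

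The other 7 members were nearly level, with population means that differed by 1.08-fold to 1.28-fold. The catalytic subunit Atp6v1a averaged 2165 ± 79.9 in Treg, 2338 ± 311 in Tconv and 2243 ± 482 in PD1hi, and its partner Atp6v1b2 averaged 1441 ± 224, 1540 ± 63.8 and 1566 ± 278. The peripheral stalk subunit Atp6v1e1 averaged 1493 ± 83.4, 1674 ± 13.5 and 1472 ± 119. The ring subunits Atp6v0c and Atp6v0b averaged 1350 ± 142, 1522 ± 33.3 and 1383 ± 113, and 1009 ± 101, 1234 ± 95.6 and 1187 ± 47.8, in the same order of populations. In Treg against Tconv, 4 of the 10 members lay lower with no overlap of their experiment values: Atp6v0a2, Atp6v0b, Atp6v0c and Atp6v1e1. Their log2 differences were -0.36, -0.29, -0.18 and -0.17. Another 2 members lay higher and 4 overlapped, beside 16.4% of all genes lower and 17.9% higher without overlap. In PD1hi against Tconv, the difference of Atp6v0b was -0.05 ± 0.14, and 0.09 when libraries were scaled to equal totals, so no direction is given for that comparison. Atp6v0c has processed pseudogenes, and genes on the other strand overlap Atp6v0a2, Atp6v0b, Atp6v1b2 and Atp6v1e1. Where reads of such pairs were counted without strand they could not be told apart, and the strand setting is not given in the sources used here.

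**Figure D2:**
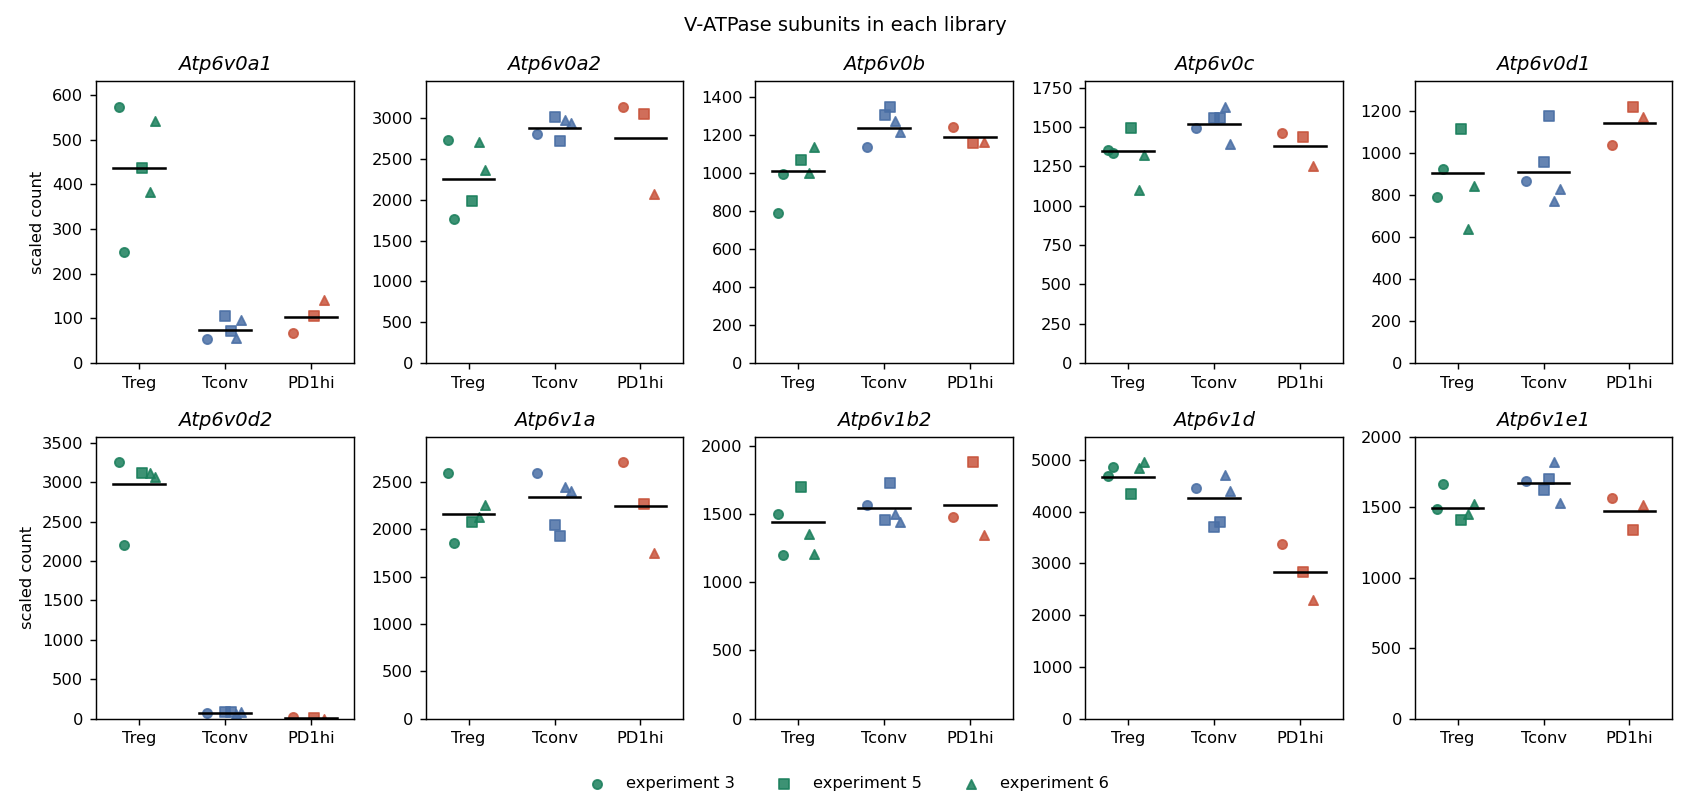
Scaled count (y axis, from 0) of each of the 10 subunits in every library, by population. Each point is 1 library, shaped by experiment, and black lines are means over experiments. Atp6v0d2 lies between 2196 and 3252 in Treg and at most 87.45 elsewhere, and PD1hi is lowest for Atp6v1d.

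Summed over the 9 members other than Atp6v0d2, scaled counts were 15730 ± 131 in Treg, 16430 ± 456 in Tconv and 14680 ± 1770 in PD1hi. The PD1hi sums were 16070, 15280 and 12690 in experiments 3, 5 and 6, and the lowest belongs to a library that stands apart. Levels were also ranked per kilobase of exon, the scale on which genes can be compared. In Treg, Atp6v0d2 (1096 ± 80.6) and Atp6v1d (1016 ± 62.1) came first and did not differ beyond their spread. They were followed by Atp6v0d1 (503.8 ± 107) and Atp6v0b (491.9 ± 49.2), which did not differ either, and Atp6v0a1 (66.61 ± 3.92) came last. In Tconv, Atp6v1d (925.7 ± 95.5) and Atp6v0b (601.9 ± 46.6) led, and Atp6v0d2 (27.51 ± 3.21) and Atp6v0a1 (11.16 ± 2.66) were last. In PD1hi, Atp6v0d1 (636.2 ± 52.9), Atp6v1d (615.6 ± 119) and Atp6v0b (578.8 ± 23.3) lay within their spread, and Atp6v0d2 (3.251 ± 2.92) was last. Atp6v0d2 was thus among the leading pair in Treg and last in PD1hi.

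**Figure D3:**
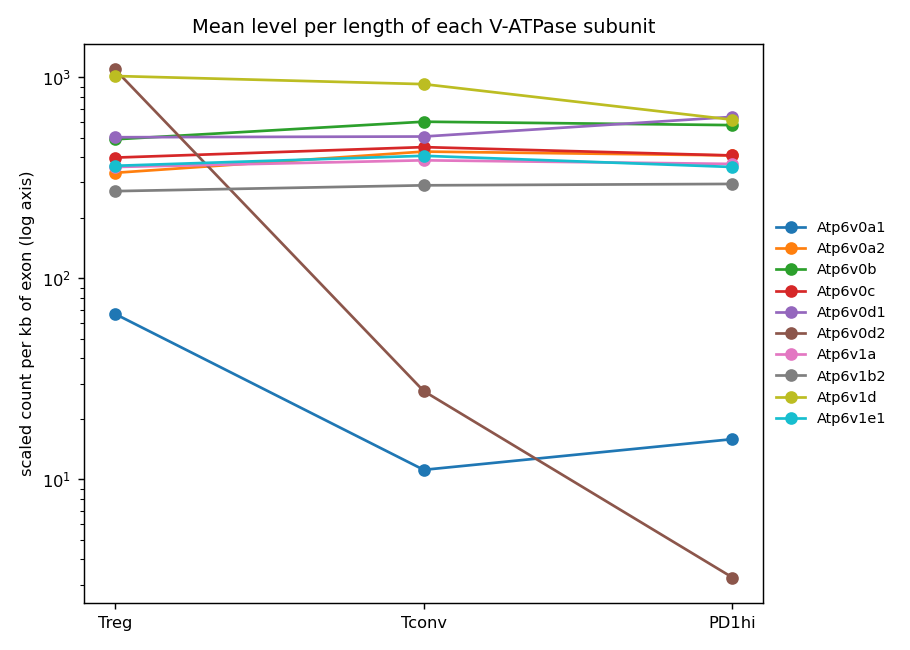
Mean scaled count per kilobase of exon of each subunit (y axis, log scale) in Treg, Tconv and PD1hi. Lines join the values of 1 gene and imply no order of the populations. Atp6v0d2 runs from 1096 in Treg to 3.251 in PD1hi, while 8 of the 10 lie between 271.7 and 1016 in every population.

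Counts past the limma threshold (Benjamini-Hochberg adjusted p under 0.05) were set beside those of all 14177 genes tested, and nothing is read from them for the chosen genes. In PD1hi against Tconv 26.1% of all genes passed (14.2% higher and 11.9% lower), and 2 of 10 members did, Atp6v0d2 and Atp6v1d, both lower. In PD1hi against Treg 16.5% passed (8.16% higher and 8.39% lower), and 3 members did, Atp6v0a1, Atp6v0d2 and Atp6v1d, all lower. In Treg against Tconv 14.4% passed (8.73% higher and 5.66% lower), and 2 members did, Atp6v0a1 and Atp6v0d2, both higher. The median log2 difference of the 10 was -0.08, 0.03 and -0.10, beside -0.000, -0.009 and 0.006 for all genes. The call of Atp6v1d against Tconv was lost without experiment 3 or without experiment 6 of Tconv. Without PD1hi of experiment 6, Atp6v0a2 passed too, higher in PD1hi against Treg (0.46, adjusted p = 0.0254) and lower in Treg against Tconv (adjusted p = 0.0479). Without both libraries that stand apart, Atp6v0a2 passed in neither (adjusted p = 0.0904 and 0.174). Comparisons share libraries, so their values are not separate evidence. Scaling to equal library totals moved the median of all genes in PD1hi against Tconv to 0.143 and the higher share of calls from 54.4% to 65.4%.

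**Figure D4:**
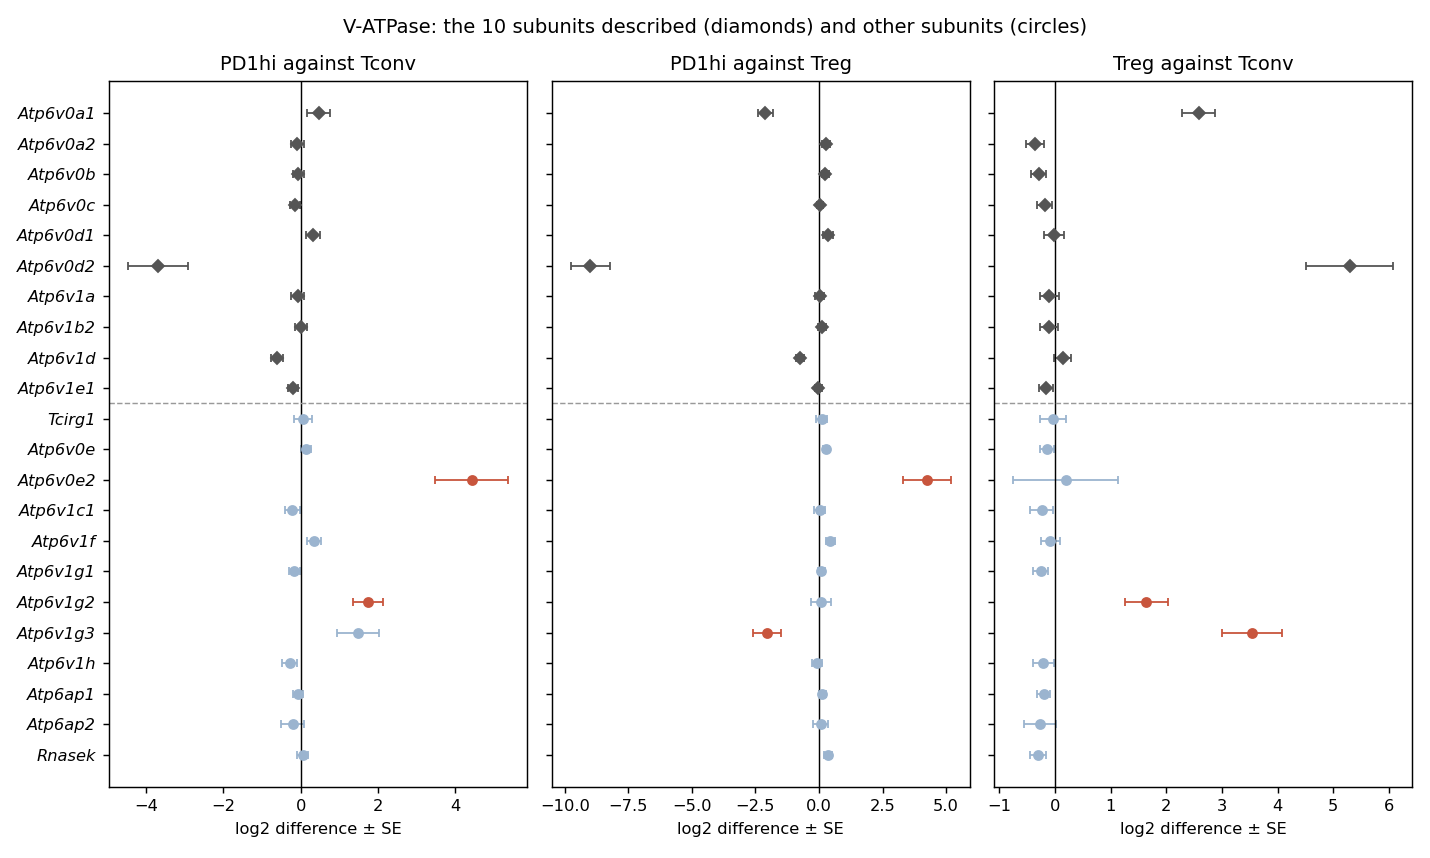
Log2 difference ± SE (x axis) of the 10 subunits described (diamonds) and of 12 other V-ATPase subunits (circles) in each comparison; red circles passed adjusted p under 0.05 and pale circles did not. Every value beyond 1 in size belongs to an isoform of low level in at least 1 population: Atp6v0d2 and Atp6v0a1 above the dashed line, and Atp6v0e2, Atp6v1g2 and Atp6v1g3 under it.

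The remaining subunits and accessory proteins of the pump were tested over all genes. This list, too, was made with earlier results of these data known. Of the 16 listed, 13 were in the table and 12 were tested. In PD1hi against Tconv 2 were higher and 10 were not past the test (median 0.06), in PD1hi against Treg 1 was higher, 1 lower and 10 not past (median 0.10), and in Treg against Tconv 2 were higher and 10 not past (median -0.17). The share called was 16.7% in each comparison, beside 26.1%, 16.5% and 14.4% of all genes, and all calls concerned isoforms of low level. The widely expressed subunits Tcirg1, Atp6v0e, Atp6v1c1, Atp6v1f, Atp6v1g1, Atp6v1h, Atp6ap1, Atp6ap2 and Rnasek passed in none of the 3 comparisons in the fit of all libraries. On simulated data the test recovered 43% of 2-fold changes in PD1hi against Tconv, so differences of that size can be missed. Without both libraries that stand apart, Rnasek was lower in Treg against Tconv (-0.35, adjusted p = 0.035), and with only the first library of each pair Atp6v1f was higher in PD1hi against Treg (0.50, adjusted p = 0.0445).

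Atp6v0e2, an isoform of the V0 e subunit, was measured mainly in PD1hi. PD1hi libraries had 116.8, 11.11 and 35.88, Treg libraries 2.809, 1.533, 0, 1.873 and 1.078, and Tconv libraries 0, 0, 5.332, 0 and 0.8552. All PD1hi libraries lay above all others, with a spread among them of 54.61 ± 55.3, and the 5 Tconv libraries held 6 reads in all. The rise was 4.43 ± 0.94 against Tconv (adjusted p = 0.00407) and 4.24 ± 0.94 against Treg (adjusted p = 0.00803). Its size depended on the pseudocount, since most Treg and Tconv libraries held few reads: with a pseudocount of 5 it was 2.86 and 2.81. Without PD1hi of experiment 5 the rise was 5.25 and 5.05. Without PD1hi of experiment 3, the library at 116.8, Atp6v0e2 fell under the level for testing and has no value. Atp6v0e, the common isoform, averaged 4315 ± 565 in PD1hi, 3569 ± 278 in Treg and 3918 ± 167 in Tconv, and was not past the test.

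The G subunit of the peripheral stalk has 3 isoforms, of which 2 passed the test in some comparison. The common Atp6v1g1 averaged 2077 ± 133 in Treg, 2476 ± 101 in Tconv and 2228 ± 334 in PD1hi. Atp6v1g2 averaged 108 ± 10.5 in PD1hi, 107.8 ± 50 in Treg and 33.52 ± 12.9 in Tconv. It rose by 1.74 ± 0.39 in PD1hi against Tconv (adjusted p = 0.00571) and by 1.65 ± 0.39 in Treg against Tconv (adjusted p = 0.0133). The second call was lost with only the first library of each pair (adjusted p = 0.0564), without Treg of experiment 5 (0.0614) and without Tconv of experiment 6 (0.0596). Atp6v1g2 overlaps Nfkbil1 on the other strand.

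Atp6v1g3 was highest in Treg, as Atp6v0d2 and Atp6v0a1 were. Treg libraries had 101.1, 68.22, 42.32, 37.46 and 30.18, Tconv libraries 2.131, 2.969, 5.332, 8.288 and 0, and PD1hi libraries 11.27, 16.17 and 7.61. The Treg libraries lay above all others. Means were 53.6 ± 27.2 in Treg, 3.475 ± 1.16 in Tconv and 11.68 ± 4.29 in PD1hi, so Treg carried most of the mean used to admit the gene. The rise in Treg against Tconv was 3.54 ± 0.54 (adjusted p = 0.000797). In PD1hi against Treg Atp6v1g3 fell by 2.05 ± 0.54 (adjusted p = 0.0209), a call lost without Treg of experiment 3 (0.11) and with all 13 libraries and an estimated correlation within pairs (0.0721). In PD1hi against Tconv the difference was 1.48 ± 0.54 (adjusted p = 0.0638). That passed under 4 of its 20 alternatives, among them without the PD1hi library of experiment 6 (1.74, adjusted p = 0.0408). Atp6v1c2 was under the level for testing, with 22 reads in PD1hi and 6 in Tconv.

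In several cell types V-ATPase genes carry the CLEAR element, a palindrome around CACGTG that is bound by TFEB and TFE3, so the promoters were searched for CACGTG and for the longer TCACGTGA that contains it. Both motifs read the same on either strand. RefSeq promoters (GRCm38.p6), from 250 bases before to 50 after the start, matched 7 of the 10 members by symbol; Atp6v0a2, Atp6v0d2 and Atp6v1b2 were not matched. CACGTG was in 3 of the 7 genes (Atp6v0b, Atp6v0d1 and Atp6v1a) and in 8.09% of all 27025 genes. TCACGTGA was in 2 of the 7 (Atp6v0d1 and Atp6v1a) and in 1.12% of all genes. Of 9 other subunits matched, Atp6v0e held both. The stretch from 150 bases before to 10 after the start is shown for those 3 genes and for Atp6v0a1 and Atp6v1d, members that differed between populations and in which neither motif was found. Capitals mark the motifs, which begin 3 bases before the start in Atp6v0d1, 131 in Atp6v1a, and 36 and 18 in Atp6v0b, counted from the C of CACGTG.
Atp6v0d1, chr8:105566055-105566214, minus strand: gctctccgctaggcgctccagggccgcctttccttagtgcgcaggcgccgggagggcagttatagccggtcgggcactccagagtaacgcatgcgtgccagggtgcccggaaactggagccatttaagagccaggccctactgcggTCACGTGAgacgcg
Atp6v1a, chr16:44139250-44139409, minus strand: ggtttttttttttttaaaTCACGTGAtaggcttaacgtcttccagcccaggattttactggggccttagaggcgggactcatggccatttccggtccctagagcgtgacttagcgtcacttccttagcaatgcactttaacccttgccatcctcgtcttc
Atp6v0b, chr4:117887320-117887479, minus strand: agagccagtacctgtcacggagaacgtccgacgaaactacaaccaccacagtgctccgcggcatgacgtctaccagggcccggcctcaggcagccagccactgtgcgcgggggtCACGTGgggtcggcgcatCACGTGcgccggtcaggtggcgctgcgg
Atp6v0a1, chr11:101010248-101010407, plus strand: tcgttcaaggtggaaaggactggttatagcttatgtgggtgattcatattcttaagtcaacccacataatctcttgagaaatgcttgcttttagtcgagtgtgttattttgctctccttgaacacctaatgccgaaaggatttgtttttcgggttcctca
Atp6v1d, chr12:78861629-78861788, minus strand: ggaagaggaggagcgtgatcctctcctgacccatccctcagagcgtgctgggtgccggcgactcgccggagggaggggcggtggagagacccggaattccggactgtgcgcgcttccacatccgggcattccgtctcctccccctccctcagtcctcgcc

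The 3 genes with CACGTG were among the 7 nearly level members. Atp6v0c and Atp6v1e1, also nearly level, held neither motif. Atp6v0a1 and Atp6v1d were shown because they differed, and Atp6v0d2, which differed too, had no promoter matched. The members were chosen on these data, so no link between motif and level is read from this. A match is a description of letters in this window and shows no binding.

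Levels of the factors that bind this element were tested over all genes. Tfe3 averaged 887.1 ± 221 in PD1hi, 486.8 ± 138 in Treg and 353.7 ± 92 in Tconv, and it rose by 1.33 ± 0.26 in PD1hi against Tconv (adjusted p = 0.0021). Against Treg it rose by 0.87 ± 0.26 (adjusted p = 0.0354), a call lost without both libraries that stand apart (0.72, adjusted p = 0.0818). It was also lost without Treg of experiment 3 (0.128) or 6 (0.125) and without PD1hi of experiment 5 (0.071) or 6 (0.0875). Tfeb averaged 198.1 ± 52.5 in PD1hi, 108.5 ± 28.3 in Treg and 127.6 ± 62.4 in Tconv, and Mitf averaged 26.42 ± 15.7, 37.24 ± 22.3 and 39.47 ± 8.64; neither passed in any comparison. Tfec was under the level for testing.

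Of 19 genes tested for the mTORC1 machinery of the lysosome, which the pump contacts, 1 rose and 2 fell in PD1hi against Tconv, 2 fell in PD1hi against Treg, and 2 rose in Treg against Tconv. These were 15.8%, 10.5% and 10.5% of the list, beside 26.1%, 16.5% and 14.4% of all genes. Rragd, one of the Rag GTPases that tether mTORC1, averaged 243.8 ± 57.8 in Treg, 42.02 ± 1.27 in Tconv and 21.09 ± 15.8 in PD1hi. It rose by 2.48 ± 0.45 in Treg against Tconv (adjusted p = 0.00262) and fell by 3.68 ± 0.45 in PD1hi against Treg (adjusted p = 0.00012). Lamtor4, a subunit of the Ragulator scaffold, rose by 0.61 ± 0.16 in both PD1hi and Treg against Tconv (adjusted p = 0.0142 and 0.024). Mlst8, a core mTORC1 subunit, fell by 0.78 ± 0.19 in PD1hi against Tconv (adjusted p = 0.00803). Fnip1, a partner of folliculin, fell by 0.53 ± 0.16 against Tconv (adjusted p = 0.0254) and by 0.59 ± 0.16 against Treg (adjusted p = 0.0226). Both Fnip1 calls and that of Mlst8 were lost without the 2 libraries that stand apart (adjusted p = 0.0616, 0.0672 and 0.0503). The same fit added calls of Lamtor2, lower in PD1hi and Treg against Tconv (adjusted p = 0.0359 and 0.0235), and of Rptor, lower in PD1hi against Tconv (0.0459). Leaving out 1 experiment of Tconv, 3 or 6, also ended the Fnip1 call against Tconv (0.0709 and 0.118) and both Lamtor4 calls (0.0684 and 0.053 for PD1hi, 0.109 and 0.0837 for Treg). Treg of experiment 5 or 6 ended that of Fnip1 against Treg (0.0784 and 0.0951), and Treg of experiment 3 or 5 that of Lamtor4 (0.0937 and 0.0619).

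Genes for assembly and regulation of the pump (8 of 9 tested) gave 2 calls, both in PD1hi against Treg. Ncoa7 and Oxr1, TLDc domain proteins that bind V1, fell by 0.77 ± 0.22 (adjusted p = 0.0298) and by 0.63 ± 0.18 (adjusted p = 0.0286), and each call was lost without any 1 of the 3 Treg experiments (adjusted p = 0.0598 to 0.0946) and without PD1hi of experiment 5 (0.0579 and 0.0586). In PD1hi against Tconv and in Treg against Tconv limma called 0 of the 8, and 0 had an unadjusted p under 0.05. Alternatives added calls there: Ncoa7 was higher in Treg against Tconv without both libraries that stand apart (0.52, adjusted p = 0.0321), without PD1hi of experiment 6 (0.44, adjusted p = 0.0469) and with only those groups in the fit (adjusted p = 0.041), and Oxr1 was lower in PD1hi against Tconv without PD1hi of experiment 3 (-0.55, adjusted p = 0.0349).

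Among 30 genes of the lysosomal membrane and lumen, 4 rose and 5 fell in PD1hi against Tconv, 5 rose and 5 fell in PD1hi against Treg, and 2 rose and 4 fell in Treg against Tconv (4 and 4 without the libraries that stand apart, with Lamp2 and Ostm1 added). The shares called were 30%, 33.3% and 20%, beside 26.1%, 16.5% and 14.4% of all genes. Their median differences were -0.02, -0.11 and 0.09, beside -0.000, -0.009 and 0.006 for all genes. Ctsb, a cysteine protease, averaged 36090 ± 4980 in PD1hi, 14680 ± 774 in Treg and 13120 ± 1010 in Tconv, and rose by 1.45 ± 0.14 against Tconv (adjusted p = 9.89e-06) and 1.29 ± 0.14 against Treg (adjusted p = 3.57e-05). Ctsl, another cysteine protease, averaged 589.3 ± 43.8 in PD1hi, 230.1 ± 71.9 in Tconv and 101.1 ± 13.7 in Treg, and passed in all 3 comparisons. Npc2, which carries cholesterol out of the lysosome, averaged 15290 ± 1150 in Tconv, 9331 ± 564 in Treg and 3718 ± 46.1 in PD1hi, and fell in PD1hi against both and in Treg against Tconv. Sgsh, a sulfatase of heparan sulfate breakdown, averaged 2090 ± 85.7 in PD1hi, 1709 ± 145 in Tconv and 752.8 ± 125 in Treg, and differed between Treg and both others.

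**Figure D5:**
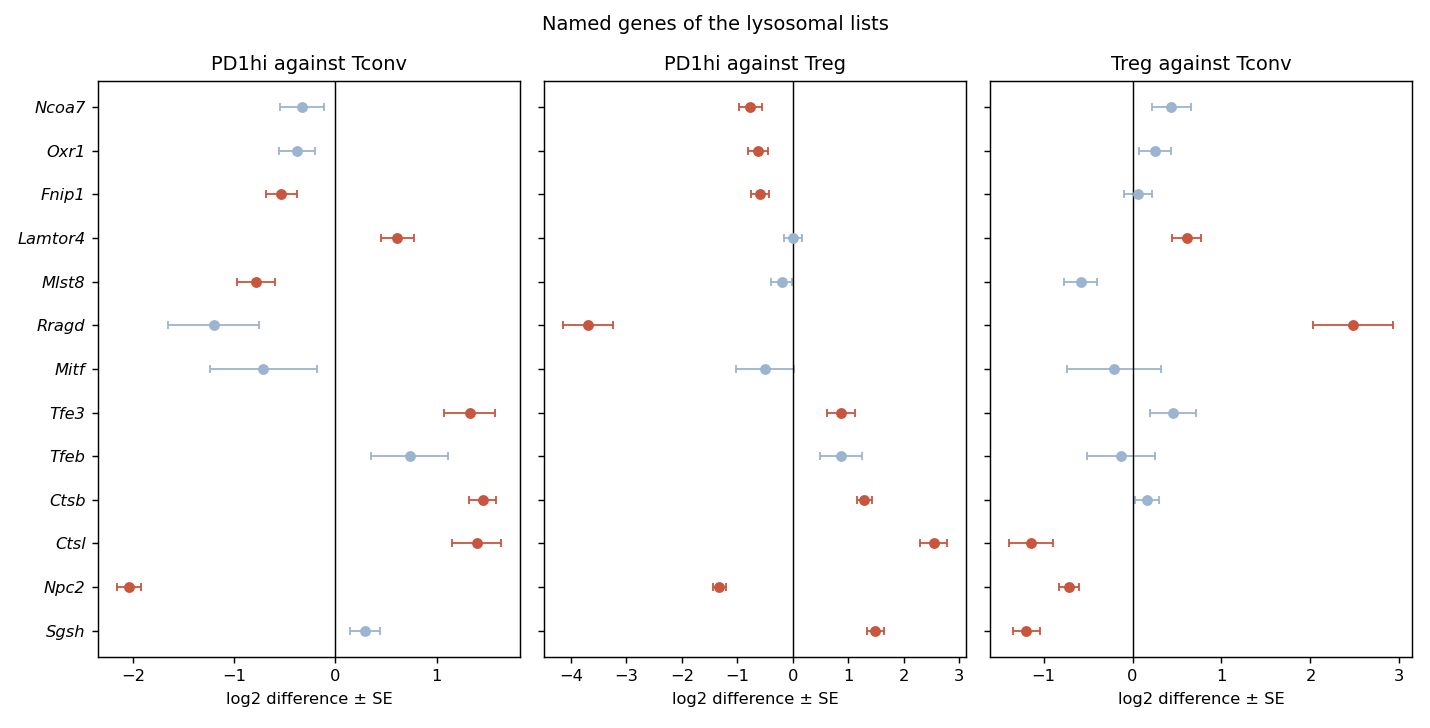
Log2 difference ± SE (x axis) of named genes for pump regulation, mTORC1 at the lysosome, MiT-TFE factors and lysosomal proteins in each comparison; red points passed adjusted p under 0.05 and pale points did not. Rragd stands at 2.48 in Treg against Tconv and -3.68 in PD1hi against Treg, and Npc2 and Ctsb lie on opposite sides in both PD1hi comparisons.

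The mitochondrial ATP synthase, a rotary enzyme related to the V-ATPase, served as a comparison. Limma called 0 of its 15 genes in each comparison, with medians of -0.02, 0.08 and -0.15. At an unadjusted p under 0.05, 1 was higher in PD1hi against Tconv, 0 passed in PD1hi against Treg, and 1 was lower in Treg against Tconv. Without both libraries that stand apart, Atp5h was lower in Treg against Tconv (adjusted p = 0.0292), and Atp5j was higher in PD1hi against Tconv with equal library totals (0.0219) and with experiment as a block (0.0437).

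Genes whose pattern over the 9 values was most like that of Atp6v0d2 were ranked by Pearson correlation of log2 values among 11287 genes, as a description with no test, since the 9 values fall into 3 populations. The first 5 were Gm4956 (r = 0.9935), the chemokine receptor gene Ccr4 (0.9892), the interferon-inducible GTPase genes Gbp6 (0.9891) and Gbp7 (0.9844), and the exchange factor gene Vav3 (0.9886). Gm4956 averaged 2745 ± 277 in Treg, 281.6 ± 51.6 in Tconv and 36.15 ± 23.8 in PD1hi. Ccr4 averaged 1833 ± 88.6, 421.2 ± 109 and 199.8 ± 92.1 in the same order. All 5 were highest in Treg and lowest in PD1hi, as Atp6v0d2 was.

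Markers of other cells were set beside Atp6v0d2, since macrophages and osteoclasts express it. Summed macrophage, monocyte and dendritic markers (16 of 20 in the table) ran from 1699 to 2881 in Treg libraries, 1460 to 2461 in Tconv and 2076 to 2542 in PD1hi, with Siglec1 at 0 in Treg and Spic at 0 in Tconv. That sum was led by Cst3, at 1438 ± 182, 1098 ± 168 and 1520 ± 134 in Treg, Tconv and PD1hi, and single markers differed between populations. Itgam averaged 109.2 ± 36.6, 123.5 ± 46.1 and 13.74 ± 8.26 in the same order, and Cd68 averaged 51.17 ± 17.8, 47.92 ± 14.2 and 171.4 ± 58.9. Itgam was lower and Cd68 higher in PD1hi against Tconv (adjusted p = 0.000213 and 0.00441) and against Treg (0.000454 and 0.00835). Summed osteoclast markers (5 of 8) were at 4308 to 4797 in Treg, 8331 to 9495 in Tconv and 3585 to 4018 in PD1hi, so Tconv was highest. That sum was led by Acp5, at 3224 ± 157, 5370 ± 144 and 3479 ± 377, while the defining protease gene Ctsk averaged 3.151 ± 4.3, 7.501 ± 1.66 and 2.05 ± 3.55. Mmp9, the gelatinase gene of the same list, averaged 590 ± 130 in Treg, 446.6 ± 160 in Tconv and 41.37 ± 22 in PD1hi, an order shared with Atp6v0d2. It fell in PD1hi against Tconv (-3.51 ± 0.43, adjusted p = 8.24e-05) and against Treg (-3.96 ± 0.43, adjusted p = 4.89e-05), and it was not past the test in Treg against Tconv (0.45 ± 0.43, adjusted p = 0.598). The integrin gene Itgb3 averaged 696.4 ± 72.6, 2790 ± 439 and 201.6 ± 101, and was also lower in PD1hi against Tconv (adjusted p = 5.85e-06) and against Treg (0.00168). CD4 T cell markers were present throughout, with sums of 98920 to 121500 in Treg, 142500 to 156400 in Tconv and 165300 to 173600 in PD1hi. B cell marker sums were at 789.5 to 1263 in Treg, 202.5 to 407.1 in Tconv and 1678 to 2282 in PD1hi. CD8 T and NK sums were at 941.4 to 1265, 4787 to 7182 and 2404 to 3601. Both sums came in orders other than that of Atp6v0d2, but single B cell markers differed. Cd79b was highest in Treg, as Atp6v0d2 was, at 706, 642.3 and 540 in experiments 3, 5 and 6. It was at 60.74, 58.26 and 54.53 in Tconv and at 145.5, 84.87 and 158.7 in PD1hi. Cd22 led the PD1hi sum, at 1949, 1488 and 1588, beside 221.7, 224.8 and 276.3 in Treg. B cell sums were highest in PD1hi, as were Atp6v0e2, Tfe3 and Ctsb. Erythroid and platelet sums were at most 75.83. The part of these cells in the results, those on Atp6v0d2 included, was not tested.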

How the data were processed

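RNA of 13 libraries was extracted with Trizol, depleted of ribosomal RNA and sequenced on Ion Torrent, per the labels' protocols. Picard, HTSeq 0.5.4 and limma, with hg19, GRCh37 and mm9 as builds, are named in the submitters' processing notes; neither aligner nor strand setting is given in the sources used here. As one file, the authors deposited 1 table of signal values, counts scaled by size factors, for 18649 genes. After subtracting 1, each deposited value divided by a library constant gave whole reads (100% of values, tolerance 0.01 reads), from which depth was taken. Depth of 15971126 to 24216463 reads limits low genes such as Atp6v0e2.

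The 10 genes and all lists were chosen with earlier results of these data known. Averaging libraries within experiment and population left 9 values. The 14177 genes with a mean of at least 10 were tested with limma 3.58.1 (R 4.3.3, trend on mean level, pseudocount 1, 2-sided, all populations in 1 fit), after a check on simulated data. In that check the test recovered 43% of 2-fold and 81% of 4-fold changes in PD1hi against Tconv. A gene not past the test may therefore still differ. The test ran on the scaled values, and no count model was fitted to the recovered reads. Same-numbered values of an experiment correlated in their deviations at -0.07 to 0.298 (6 of 9 pairs above 0.1), and those of different experiments at -0.274 to 0.125; the pairing comes from the experiment number in the titles. Named from each list were the 3 genes with the largest difference past the test per comparison, every tested subunit and every MiT-TFE factor, and the 5 genes most like Atp6v0d2. Exon lengths are unions of GENCODE M21 exons (GRCm38), which may not be the authors' gene models. Coding sequences were aligned globally with Biopython 1.88. Repeated symbols were resolved by Ensembl ID.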

Additional observations from a re-analysis of the deposited data

Results flagged for a closer look

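Among 44 groups of 5 libraries of V-ATPase subunits in Treg and Tconv, 3 held a library whose gap to the nearest other was large against the whole range; chance flags about 1 in 20 groups. Atp6v0d2 was at 2196 in the second Treg library of experiment 3 and at 3069 to 3252 in the other 4. Rnasek was at 1774 in the same library and at 1337 to 1443 in the others. That library also stands apart on the third principal component (-50.67). Atp6v0e2 was at 5.332 in the second Tconv library of experiment 5, from 5 reads, and at 0 to 0.8552 in the others.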

How the results depend on the processing

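Differences were recomputed under 21 alternatives. With experiment as a replicate block, all genes called numbered 3974, 2579 and 2204 in PD1hi against Tconv, PD1hi against Treg and Treg against Tconv, in place of 3700, 2346 and 2039; members and other subunits past the threshold stayed at 2, 3 and 2, and at 2, 2 and 2. With a minimum mean of 50, under which Atp6v0e2 and Atp6v1g3 were not tested, other subunits past the test numbered 1, 0 and 1. They numbered 1 in PD1hi against Treg with duplicateCorrelation on 13 libraries, and 1 in Treg against Tconv with first libraries only. Leaving out 1 experiment of 1 population at a time gave 1 to 3 other subunits in PD1hi against Tconv, 1 to 2 in PD1hi against Treg and 1 to 2 in Treg against Tconv. It gave 1 to 2 members in PD1hi against Tconv, 3 to 4 in PD1hi against Treg and 2 to 3 in Treg against Tconv. The lowest count of other subunits in PD1hi against Tconv came without PD1hi of experiment 3, where Atp6v0e2 was not tested. Without both libraries that stand apart (chosen after seeing the data), other subunits past the test numbered 3, 2 and 3. No called direction turned. Atp6v0d2 kept its direction under all 21. Apart from genes that a setting left untested, the cause of these changes was not tested. Genes with few reads, such as Atp6v0e2 and Atp6v1g3, are limited by depth.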
